A study of Homo sapiens with 12 samples.

Results

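SW-13 cells that received BRG1 and IFNγ together were set against SW-13 cells that received neither, so that the difference is the whole distance covered by both treatments. SW-13, an established human adrenocortical carcinoma line, has no BRG1, which is an ATPase of SWI/SNF complexes and the product of SMARCA4. The comparison has 6 of the 12 arrays of the series, 3 per group, chosen by their titles. In the first group, Ad-BRG1 cells (transduced with an adenovirus that encodes a GFP-BRG1 fusion protein) were given IFNγ for 6 h. In the second group, Ad-GFP cells (transduced with a GFP virus) were left without IFNγ. The other 6 arrays, which hold Ad-GFP cells with IFNγ for 6 h and untreated Ad-BRG1 cells, give each treatment on its own. All groups carry an adenovirus, no group was left without one, and the dose of the BRG1 virus was set to give as much protein as HeLa cells contain. The replicates are biological according to the methods of the study.

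IFNγ is a cytokine of T cells and natural killer cells that signals from its receptor through JAK kinases and STAT factors, which induce IRF1 and then antiviral, antigen presentation and chemokine genes. SWI/SNF complexes use ATP to slide or evict nucleosomes, and BRG1 is one of their alternative ATPases. The question was which genes both treatments together moved, how far, and whether each gene had already moved that far with 1 treatment.

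The promoters of 5 genes are shown because these genes stand for the different kinds of response described here. They are IRF1 (chr5:132490774-132491023, minus strand), GBP1 (chr1:89065209-89065458, minus strand), IFITM3 (chr11:320861-321110, minus strand), HSPA6 (chr1:161524290-161524539, plus strand) and ACTG2 (chr2:73892758-73893007, plus strand). Each is the 250 bases before the annotated start in RefSeq on GRCh38.p14, read 5′ to 3′ on the strand of the gene. Capitals mark the letters of GAS (TTCNNNGAA) in IRF1, of ISRE (GAAANNGAAA) in GBP1 and IFITM3, of a heat shock element (GAANNTTCNNGAA or TTCNNGAANNTTC) in HSPA6 and of the CArG box in ACTG2, on either strand.
IRF1: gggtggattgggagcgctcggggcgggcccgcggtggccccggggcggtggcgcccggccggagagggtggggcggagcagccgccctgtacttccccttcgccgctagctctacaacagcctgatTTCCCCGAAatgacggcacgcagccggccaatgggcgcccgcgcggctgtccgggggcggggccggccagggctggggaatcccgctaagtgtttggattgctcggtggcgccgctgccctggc
GBP1: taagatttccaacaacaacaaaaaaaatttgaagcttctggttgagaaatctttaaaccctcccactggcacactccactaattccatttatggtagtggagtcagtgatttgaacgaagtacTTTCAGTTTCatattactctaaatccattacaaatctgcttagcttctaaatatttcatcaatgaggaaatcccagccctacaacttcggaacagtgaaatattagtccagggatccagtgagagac
IFITM3: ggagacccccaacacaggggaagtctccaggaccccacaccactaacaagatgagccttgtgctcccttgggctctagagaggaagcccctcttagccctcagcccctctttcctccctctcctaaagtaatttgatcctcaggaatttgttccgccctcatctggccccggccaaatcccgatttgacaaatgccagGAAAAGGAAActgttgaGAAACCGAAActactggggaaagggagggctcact
HSPA6: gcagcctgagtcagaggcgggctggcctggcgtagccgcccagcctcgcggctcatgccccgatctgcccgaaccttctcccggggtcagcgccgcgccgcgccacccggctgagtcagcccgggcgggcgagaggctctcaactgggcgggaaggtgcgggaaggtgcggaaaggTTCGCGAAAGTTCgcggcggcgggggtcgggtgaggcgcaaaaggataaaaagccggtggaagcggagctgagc
ACTG2: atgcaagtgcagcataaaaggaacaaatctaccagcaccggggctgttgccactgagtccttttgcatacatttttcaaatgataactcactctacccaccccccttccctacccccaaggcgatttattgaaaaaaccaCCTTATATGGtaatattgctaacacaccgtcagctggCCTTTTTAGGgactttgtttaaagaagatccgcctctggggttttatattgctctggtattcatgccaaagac
ISRE is the element read by STAT and IRF complexes, GAS the element read by STAT dimers, the heat shock element that of heat shock factors, and the CArG box that of serum response factor. The AP-1 site (TGANTCA) was searched as well. A gene may have several promoter windows and was counted once if any held a match. Of 8506 tested genes with a promoter sequence, 3.22% held ISRE, 7.61% GAS, 0.494% the heat shock element, 1.46% the CArG box and 5.83% the AP-1 site. Over single windows, of which there were 35116, the shares were 3.02%, 6.57%, 0.441%, 1.16% and 6.57% in the same order. Each motif was searched on its own, so that matches of different motifs may share bases. A promoter sequence was found for 11 of the 15 genes with the largest rises, and 6 of these held ISRE, 4 GAS, 2 the heat shock element, 2 the CArG box and 1 the AP-1 site. It was found for 7 of the 10 genes with the largest falls, and 0 of these held any of those motifs. A match is a description of the letters and not evidence of binding.

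Levels are normalized log2 intensities of Illumina BeadChip probes, with 1 probe per gene, and differences are log2 differences between group means of 3 arrays, so that 1 log2 unit is a 2-fold change. A gene was called when its p-value from limma, adjusted over all 10333 genes tested, was under 0.05. A probe was called above background when the authors' detection p-value was under 0.05, and a gene was tested if its probe met this on all 3 arrays of at least 1 of the 4 groups. Where a gene was not above background on any of the 3 arrays of a group, only a bound is known there, so the fold change is given as at least the value obtained with the dim group raised to the detection limit of each array. That limit was between 5.35 and 5.44 on the log2 scale.

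Both treatments together changed most genes that could be tested, and most by little. In Ad-BRG1 cells with IFNγ, 2908 genes (28.1%) were higher and 3540 genes (34.3%) were lower than in untreated Ad-GFP cells. With the authors' average normalization the larger share turned, to 3317 higher and 3125 lower, and the median over all genes was 0.02 in place of -0.05. The median absolute difference was 0.33, with a median SE of 0.09, and 90% of genes differed by less than 0.98. A rise of at least 2-fold was called in 620 genes (6.00%) and a fall of that size in 350 genes (3.39%). These counts depend on the processing, and were 321 and 83 with average normalization, 314 and 83 without background correction, and 377 and 115 when limma's treat was used to test against a 2-fold change. The large differences lay on the upper side, where 179 genes rose and 10 fell at least 4-fold, and 58 rose and 1 fell at least 10-fold. Of the 620 genes, 139 were not above background on any untreated Ad-GFP array, and since such genes entered the test only through a group in which they were brighter, their direction was set in advance. The same holds for members of the gene lists below that were not above background in untreated Ad-GFP cells. Groups did not overlap in 30.3% of genes on the higher side and in 36.8% on the lower side. Of 2482 genes with more than 1 probe detected, 96 had probes called in opposite directions.

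The distance between arrays gives the same change in 1 number. It is the root mean square log2 difference over the 10333 genes. The 9 pairs of an Ad-BRG1 array with IFNγ and an untreated Ad-GFP array lay 0.717 to 0.746 apart. Pairs within these groups lay 0.197 to 0.259 apart among Ad-BRG1 cells with IFNγ and 0.163 to 0.177 apart among untreated Ad-GFP cells, so every pair between the groups was farther apart than any pair within them. The mean distance between groups exceeded that within groups by 0.534, with p = 0.1 in an exact permutation test over the 20 splits of 6 arrays (two-sided), which is the smallest p that this design allows. From the same untreated Ad-GFP arrays, IFNγ alone lay 0.275 to 0.295 away and BRG1 alone lay 0.594 to 0.635 away. Between group means, the distance was 0.712 for both treatments, 0.242 for IFNγ alone and 0.594 for BRG1 alone. Raw mean intensity before normalization was 539.9 to 571 on the arrays of Ad-BRG1 cells with IFNγ and 627 to 666 on those of untreated Ad-GFP cells, and its part in the differences was not tested.

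**Figure D1:**
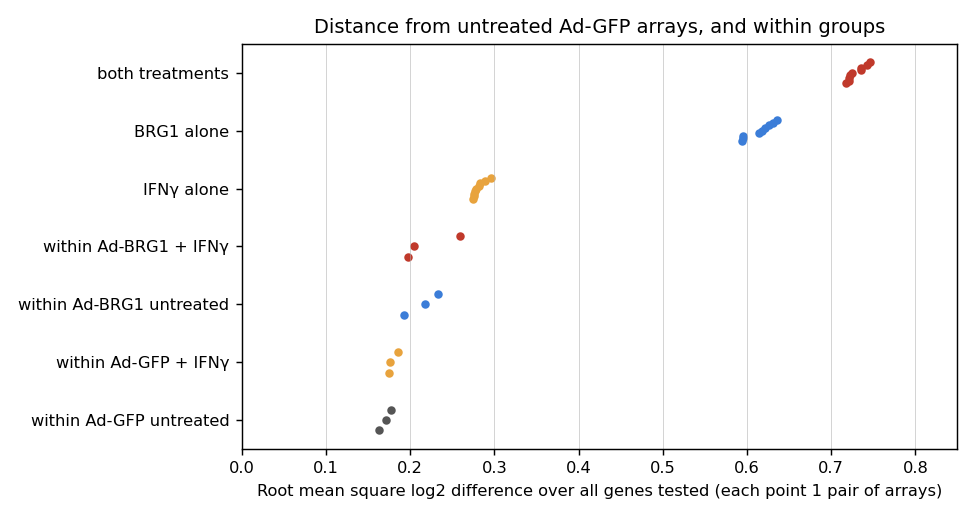
Root mean square log2 difference over all 10333 genes tested (x axis), 1 point per pair of arrays, from untreated Ad-GFP arrays to each other group and within each group (y axis). The 9 pairs for both treatments sit between 0.717 and 0.746, to the right of all pairs for either treatment alone.

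The labels were checked with the genes that the treatments name. IRF1, a transcription factor induced directly by IFNγ, was between 13.09 and 13.85 on the 6 arrays with IFNγ and between 7.90 and 8.62 on the 6 without. SMARCA4, the gene for BRG1, was at 8.39, 8.75 and 8.72 in Ad-BRG1 cells with IFNγ, against 8.81, 8.57 and 8.73 in untreated Ad-GFP cells. Its difference was -0.09 ± 0.10 (SE, 95% interval -0.30 to 0.13, adjusted p = 0.469). Where the SMARCA4 probe lies relative to the BRG1 sequence in the virus is not given in the sources used here, so this value does not check the virus labels. Most markers of the adrenal cortex were not detected: of 12 listed genes, 10 were on the array and 2 were tested. The steroid factor NR5A1, the cholesterol carrier STAR and the steroidogenic enzyme CYP17A1 did not pass the detection filter.

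The 2 largest rises were in chaperone genes that had reached their level with BRG1 alone. CRYAB, a small heat shock protein, was at 12.92, 12.82 and 12.71 in Ad-BRG1 cells with IFNγ, against 5.63, 5.76 and 5.56 in untreated Ad-GFP cells, a 143-fold rise (7.16 ± 0.09, SE, adjusted p = 1.74e-14 by limma). BRG1 alone gave 7.46 and IFNγ alone -0.18, and the CRYAB level with both was 0.29 below that with BRG1 alone (adjusted p = 0.027). All 6 Ad-BRG1 arrays were thus far above all 6 Ad-GFP arrays. HSPA6, an inducible HSP70 and 1 of the genes whose promoter is printed above, was at 12.80, 12.76 and 12.40 with both treatments, against 5.54, 5.45 and 5.55 in untreated Ad-GFP cells, a 141-fold rise (7.14 ± 0.13). Its level with both differed from BRG1 alone by 0.03 (95% interval -0.24 to 0.31). Of 25 heat shock and chaperone genes tested, 17 were higher and 2 lower, where 28.1% of all genes were higher and 34.3% lower. Their median difference was 0.52 against -0.05 over all genes. HSPB3, a small heat shock protein, was at least 5.26-fold and HSPA1A, the main inducible HSP70, 4.08-fold higher. Each array holds the RNA of a whole culture, so more expressing cells and more RNA per cell cannot be told apart. HSPA6 is closely related in sequence to other HSP70 genes, and its probe may take up their RNA.

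Genes of smooth muscle and the actin cytoskeleton took the same course. ACTG2, the smooth muscle gamma actin whose promoter holds 2 CArG boxes, was at 10.70, 10.98 and 10.90 in Ad-BRG1 cells with IFNγ, against 5.12, 5.05 and 5.07 in untreated Ad-GFP cells, where no array was above background. The rise was at least 44.9-fold, and BRG1 alone gave at least 54.2-fold. ACTA2, the smooth muscle alpha actin, rose at least 24.5-fold, the actin cross-linker TAGLN 14.1-fold and the tropomyosin TPM1 4.35-fold. Of the 20 members tested of this list, 19 were higher and 1 lower, with a median difference of 0.90, and 4 of the 20 were not above background in untreated Ad-GFP cells. BRG1 alone gave the same counts, 19 higher and 1 lower, where 26.7% and 30.3% of all genes were called in these directions, and IFNγ alone gave 0 calls in either direction. The actin genes are similar in sequence, so their probes may not be fully separate.

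**Figure D2:**
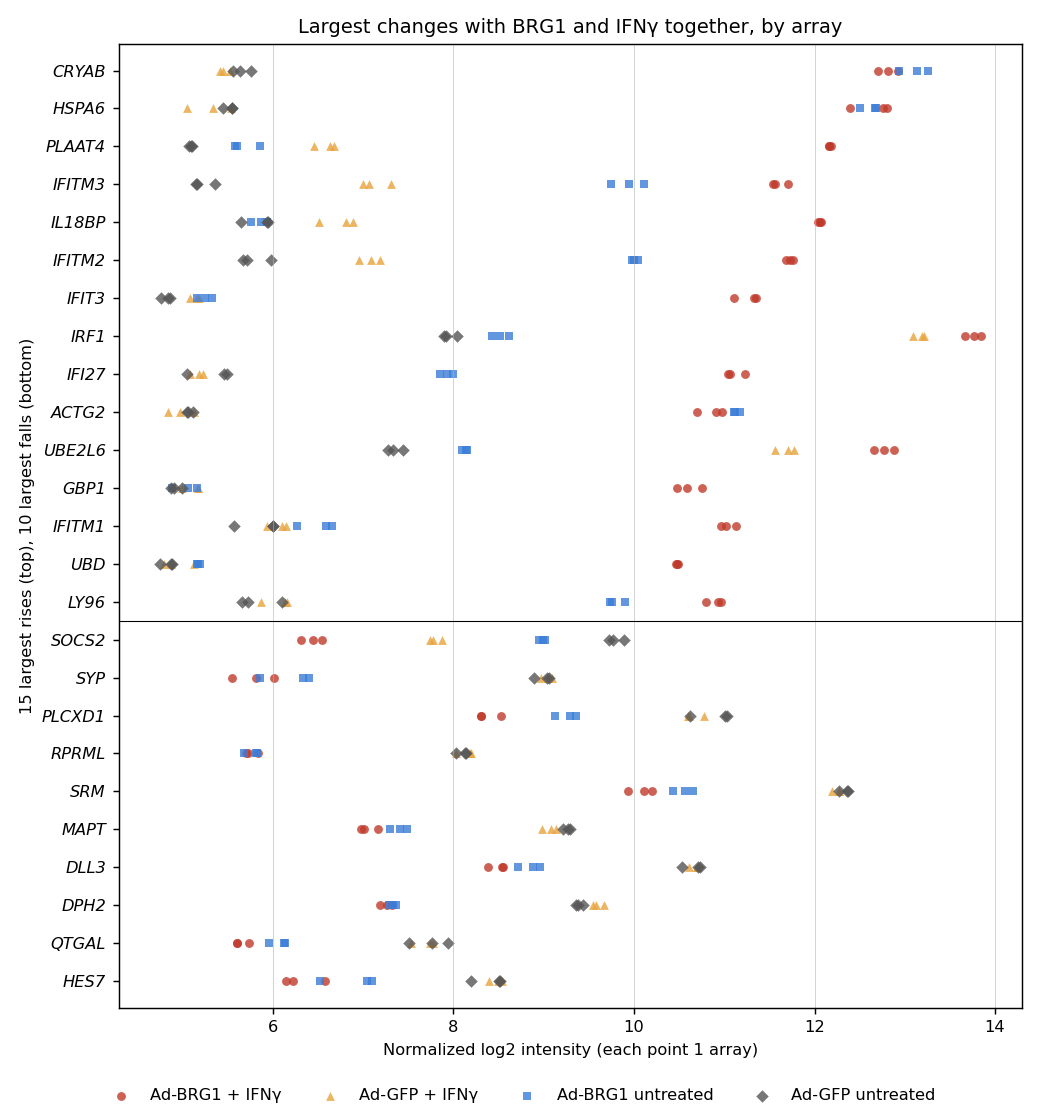
Normalized log2 intensity (x axis) of the 15 genes with the largest rises and the 10 with the largest falls (y axis), 1 point per array in all 4 groups of 3. Ad-BRG1 cells with IFNγ are separate from untreated Ad-GFP cells in every gene, as the choice of genes required, and the single treatments lie near one end, near the other or between.

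Proteases, matrix genes and growth arrest genes also followed BRG1. PLAU, the urokinase plasminogen activator, was at 10.55, 10.81 and 10.49 in Ad-BRG1 cells with IFNγ, against 5.49, 5.65 and 5.77 in untreated Ad-GFP cells, a 31.6-fold rise. MMP1, interstitial collagenase, rose 21.8-fold and SERPINE2, a protease inhibitor, 14.9-fold. The 12 tested protease and inhibitor genes split into 7 higher and 2 lower, where 28.1% of all genes were higher and 34.3% lower. Among 16 tested matrix and adhesion genes 11 were higher and 1 lower, with COL1A1 (type I collagen) at least 7.32-fold, LAMB1 (laminin) at least 5.65-fold, THBS1 (thrombospondin) at least 3.11-fold and the fibronectin receptor subunit ITGA5 4.07-fold higher, and 6 of the 16 were not above background in untreated Ad-GFP cells. CDKN1A, which encodes the cyclin-dependent kinase inhibitor p21, rose 16.5-fold, GADD45A 8.0-fold and the cytokine GDF15 5.89-fold, and 11 of 14 tested p53 target and growth arrest genes were higher and 1 was lower. JUN rose 12.8-fold, ATF3 11.2-fold and the phosphatase DUSP5 5.86-fold, among 17 immediate early and AP-1 genes of which 10 were higher and 4 lower. BRG1 alone raised 11 and lowered 0 of the matrix genes, raised 8 and lowered 1 of the proteases, and raised 10 and lowered 0 of the growth arrest genes. It raised 9 and lowered 5 of the immediate early genes. Over all genes BRG1 alone raised 26.7% and lowered 30.3%, so the lowered immediate early genes were near the share of all genes. IFNγ alone called 0 of the matrix genes, 1 protease gene, 2 growth arrest genes and 1 immediate early gene.

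Another set of genes had reached most of its level with IFNγ alone. IRF1 was at 13.67, 13.85 and 13.77 in Ad-BRG1 cells with IFNγ, against 7.90, 7.92 and 8.04 in untreated Ad-GFP cells, a 56.1-fold rise. IFNγ alone gave 5.21 and BRG1 alone 0.57, and both together gave 5.81 ± 0.07, which departed from the sum of the single changes by 0.03 (95% interval -0.19 to 0.26). The IRF1 promoter is the one printed with a GAS match. PSMB9, an immunoproteasome subunit, was at 10.01, 10.07 and 10.03 with both treatments, against 5.56, 5.48 and 5.27 in untreated Ad-GFP cells, a 24.3-fold rise, and IFNγ alone gave 26.1-fold. Its level with both was 0.10 below that with IFNγ alone, which was not a called difference (95% interval -0.28 to 0.07). UBE2L6, an enzyme that passes ISG15 to its targets, rose 42.8-fold with both and 20.1-fold with IFNγ alone. IRF9, a partner of STAT factors, rose 17.4-fold, and TAP1, the peptide transporter of MHC class I loading, 20.9-fold.

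The largest departures from the single treatments were in interferon targets that neither treatment alone brought far. GBP1, an interferon-induced GTPase whose promoter is printed with an ISRE match, was at 10.59, 10.48 and 10.75 in Ad-BRG1 cells with IFNγ, against 4.99, 4.87 and 4.90 in untreated Ad-GFP cells, a rise of at least 37.6-fold. It was at 5.17, 5.17 and 4.99 with IFNγ alone and at 4.89, 5.16 and 5.06 with BRG1 alone, so that only the 3 arrays with both treatments were above background. The fitted GBP1 difference departed from the sum of the single changes by 5.39 ± 0.13 (SE). IFIT3, an antiviral protein that binds foreign RNA together with its relatives, showed the same order, at 11.11, 11.33 and 11.35 with both treatments, against 4.76, 4.84 and 4.87 in untreated Ad-GFP cells, a rise of at least 59.3-fold. Neither single treatment brought IFIT3 above background on any array. UBD, a ubiquitin-like modifier, rose at least 34.3-fold, and was likewise above background in none of the other 3 groups. Where any of the 4 groups is not above background, the departure rests on values under the detection limit. The fitted 5.70 for IFIT3, 5.39 for GBP1 and 5.21 for UBD carry that limit. These genes also passed the detection filter only through the group with both treatments. The direction of their rise and of their departure was thus set in advance, and its test is no support.

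PLAAT4 and IL18BP were above background with a single treatment and still rose much farther with both. PLAAT4, a phospholipase of the retinoid- and interferon-inducible HRASLS family, was at 12.16, 12.19 and 12.16 with both treatments, against 5.08, 5.10 and 5.10 in untreated Ad-GFP cells, a rise of at least 111-fold. IFNγ alone gave at least 2.32-fold and BRG1 alone at least 1.24-fold. Between groups that were all above background, PLAAT4 was 47.9-fold higher with both treatments than with IFNγ alone and 89.7-fold higher than with BRG1 alone. Its fitted departure from the sum, 4.99 ± 0.12, rests on untreated Ad-GFP cells, in which no array was above background. IL18BP, the secreted inhibitor of interleukin 18, was at 12.03, 12.06 and 12.08 with both, against 5.94, 5.65 and 5.94 in untreated Ad-GFP cells, a 74.3-fold rise. It was at 6.81, 6.88 and 6.52 with IFNγ alone and at 5.87, 5.76 and 5.93 with BRG1 alone, so BRG1 alone left it within the range of untreated Ad-GFP cells. The departure for IL18BP was 5.31 ± 0.15. IFITM1, an antiviral membrane protein, rose 36.3-fold and departed by 4.33, and IFI27, a mitochondrial interferon-induced protein, rose 55.0-fold and departed by 3.35.

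Over all genes, 446 (4.32%) lay above and 396 (3.83%) below the sum of the single changes. Genes whose level with both treatments exceeded that with either one numbered 563 (5.45%), and 755 (7.31%) were lower than with either one. With average normalization this order turned, to 852 above and 566 below both. Leaving out any 1 array other than replicate 1 of Ad-GFP cells with IFNγ or of untreated Ad-GFP cells moved both counts of departures by more than 1.5 times. The departures above the sum numbered 835 without replicate 3 of untreated Ad-BRG1 cells and 213 without replicate 3 of untreated Ad-GFP cells, and those below it 780 without replicate 1 of Ad-BRG1 cells with IFNγ and 138 without replicate 3 of untreated Ad-GFP cells. Genes above both single treatments numbered 370 without replicate 2 of Ad-BRG1 cells with IFNγ, and those below both numbered 320 to 415 without replicate 2 or 3 of that group or replicate 1 or 2 of untreated Ad-BRG1 cells. The departures of GBP1, IFIT3, UBD, PLAAT4, IL18BP, IFITM1 and IFI27 were called in every alternative in which they were tested. Departures were not tested with the arrays of the joint comparison alone or with limma's treat. For GBP1, IFIT3 and UBD the direction was set in advance by the detection filter.

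**Figure D3:**
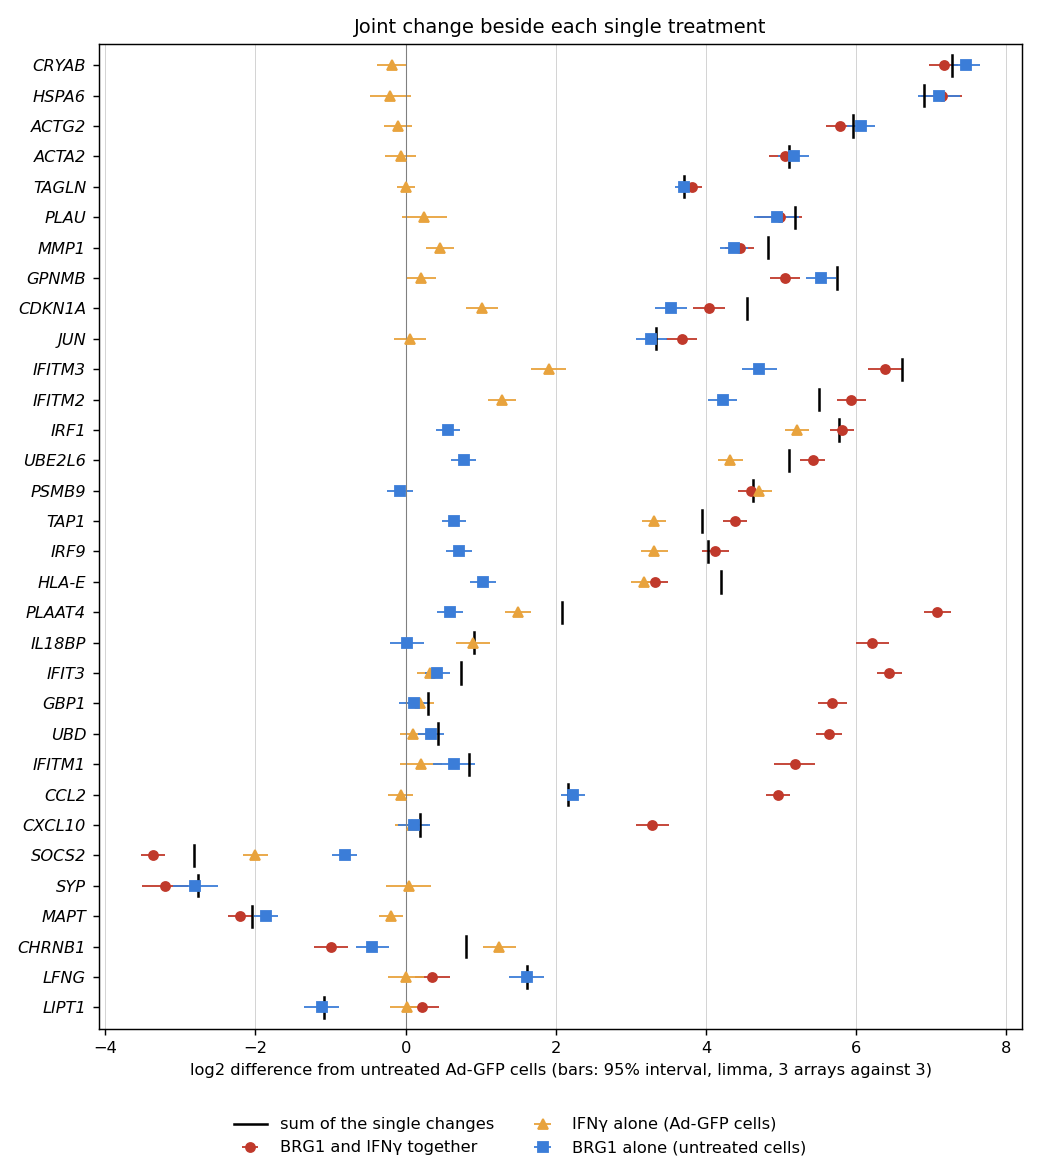
log2 difference from untreated Ad-GFP cells (x axis) of 32 genes (y axis) for both treatments (circles), IFNγ alone (triangles) and BRG1 alone (squares), 3 arrays against 3, with 95% intervals from limma, and the sum of the single changes as a black line. In CRYAB the circle lies by the square, in PSMB9 by the triangle. Genes not above background are drawn at their measured values, so that in GBP1, which was above background only with both treatments, the positions are not exact changes.

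IFITM3 and IFITM2 rose with each treatment alone and farther with both. IFITM3, an antiviral membrane protein whose promoter holds 2 ISRE matches, was at 11.71, 11.57 and 11.54 in Ad-BRG1 cells with IFNγ, against 5.16, 5.15 and 5.36 in untreated Ad-GFP cells, a rise of at least 75.1-fold. It was at 7.0, 7.31 and 7.07 with IFNγ alone and at 10.11, 9.94 and 9.74 with BRG1 alone. The 4 groups did not overlap. No untreated Ad-GFP array was above background for IFITM3, so its departure from the sum is not known, and the fitted value was -0.23 (adjusted p = 0.336) and -0.08 with the detection limit in place of that group. IFITM2 rose 61.2-fold, with 1.28 for IFNγ alone, 4.22 for BRG1 alone and a departure of 0.43 that missed the threshold (95% interval 0.16 to 0.70, adjusted p = 0.0502). IFITM1, IFITM2 and IFITM3 are close copies of each other, and their probes may share signal. LY96, the partner of TLR4 also known as MD-2, rose 33.5-fold, mostly with BRG1, which alone gave 3.96, and departed from the sum by 0.88.

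The interferon lists were higher almost throughout, with different shares from each treatment. Of 45 antiviral genes tested, 43 were higher and 1 was lower with both treatments, with a median difference of 2.19, against 29 higher with IFNγ alone, where 3.10% of all genes were higher and 0.977% lower, and 21 higher and 6 lower with BRG1 alone. The gene that fell was HERC5, a ligase for ISG15, named here after its values were seen, at -1.20 with both treatments and -1.28 with BRG1 alone. In this list 27 genes lay above the sum of the single changes and 3 below, and 17 were not above background in untreated Ad-GFP cells. All 17 genes tested for antigen processing and MHC class I were higher with both treatments (median 1.33), where 28.1% of all genes were. IFNγ alone raised 11 of the 17, and BRG1 alone raised 10 and lowered 2. Over all genes BRG1 alone raised 26.7% and lowered 30.3%. Among these 17 genes, 5 lay above the sum of the single changes and 3 below, and 3 were not above background in untreated Ad-GFP cells. PSMB8, the partner of PSMB9 in the immunoproteasome, rose at least 12-fold, with a fitted departure of 2.61 above the sum. HLA-E, a non-classical MHC class I molecule, rose by 3.32 on the log2 scale and lay 0.88 below it.

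Of 7 guanylate-binding proteins listed, 5 were tested, and all 5 were higher with both treatments, where 28.1% of all genes were. Their median was 4.63, or 4.30 with bounds in place of values not above background. With IFNγ alone 0 of the 5 were called and with BRG1 alone 1 was higher. Over all genes, 3.10% were higher with IFNγ alone and 26.7% with BRG1 alone. In untreated Ad-GFP cells 4 of the 5 were not above background. These passed the filter only through another group, so their direction was largely set in advance. GBP2 rose at least 21.9-fold, GBP4 at least 19.7-fold and GBP5 at least 11.2-fold. These GTPases resemble each other, GBP1 and GBP3 most, and probes may share signal. Chemokines and cytokines were close to this picture: all 8 tested of 13 listed were higher with both (median 2.64, or 2.17 with bounds). With IFNγ alone 1 was higher, and with BRG1 alone 2 were, near the share of all genes for BRG1. Of the 8, 6 were not above background in untreated Ad-GFP cells, so that their direction too was largely set in advance. CCL2, which attracts monocytes, was at 9.93, 9.94 and 9.87 with both treatments, against 4.89, 5.02 and 4.96 in untreated Ad-GFP cells, a rise of at least 23.3-fold. CCL2 was also above background on all arrays with BRG1 alone, at 7.03, 7.30 and 7.23, but on none with IFNγ alone. CXCL10, a ligand of CXCR3, rose at least 7.73-fold and CCL8 at least 6.99-fold.

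Among 13 IFNγ signalling genes tested, 10 were higher and 2 lower with both treatments (median 1.15), and 3 of the 13 were not above background in untreated Ad-GFP cells. For this and the next lists, 28.1% of all genes were higher and 34.3% lower with both treatments. SOCS1, the feedback inhibitor of JAK kinases, rose at least 10.2-fold and IRF8 at least 7.20-fold, with fitted departures of 2.40 and 1.16 above the sum of the single changes. In a list of 19 other IFNγ targets, 18 were higher and 0 lower (median 2.68), with BATF2, a transcription factor, 22-fold and LGALS3BP, a secreted galectin-binding protein, at least 21.1-fold higher, and 7 of the 19 were not above background in untreated Ad-GFP cells. The 5 MHC class II pathway genes tested of 14 listed were all higher (median 0.67, or 0.43 with bounds), and 2 of the 5 were not above background in untreated Ad-GFP cells. This median was 0.40 with average normalization, 0.31 without background correction and 0.36 with an offset of 50. Medians of the other interferon lists were also smaller with average normalization. They were 2.67 for guanylate-binding proteins, 1.30 for chemokines and cytokines and 1.31 for antiviral genes. For IFNγ signalling the median was then 0.50, for other IFNγ targets 1.79, and for antigen processing and MHC class I 0.94. The lysosomal thiol reductase IFI30 rose 11.2-fold and HLA-DOB 2.51-fold. CIITA, the class II transactivator, was at 5.64, 5.50 and 5.62 in Ad-BRG1 cells with IFNγ, against 4.92, 5.17 and 5.28 in untreated Ad-GFP cells, where no array was above background. That is a rise of at least 1.16-fold, so CIITA stood just over the detection limit at 6 h. Cytokine and growth factor receptors were higher in 24 and lower in 2 of 31 genes tested (median 0.62, or 0.57 with bounds). Of the 31, 6 were not above background in untreated Ad-GFP cells. IFNγ alone raised 4 of them, where it raised 3.10% of all genes. BRG1 alone raised 16 and lowered 1 of the receptor genes, where it raised 26.7% and lowered 30.3% of all genes. The TNF receptor TNFRSF1A rose 5.04-fold, TNFRSF14 at least 4.37-fold and IL15RA at least 3.50-fold.

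The falls were smaller than the rises. SOCS2, an inhibitor of growth hormone and other cytokine receptors, was at 6.44, 6.54 and 6.31 in Ad-BRG1 cells with IFNγ, against 9.72, 9.89 and 9.77 in untreated Ad-GFP cells, a 10.3-fold fall (-3.36 ± 0.07, SE, adjusted p = 1.7e-12 by limma). IFNγ alone gave -2.0 and BRG1 alone -0.81, and the 4 groups did not overlap. SOCS2 was the gene farthest below both single treatments. Its departure from the sum, -0.55 (adjusted p = 0.00943), became 0.08 with the authors' average normalization. SYP, the synaptic vesicle protein synaptophysin, was at 6.01, 5.81 and 5.55 with both treatments, against 9.04, 9.06 and 8.89 in untreated Ad-GFP cells, a 9.22-fold fall, with -2.80 for BRG1 alone and 0.04 for IFNγ alone.

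The other 8 of the 10 largest falls also had most of their change with BRG1 alone. PLCXD1, a phospholipase C-like protein, fell 5.68-fold, SRM, the spermidine synthase, 4.76-fold, the microtubule-associated protein MAPT 4.62-fold and DPH2, an enzyme of diphthamide synthesis, 4.38-fold. DLL3, an inhibitory Notch ligand, fell 4.48-fold and HES7, a transcriptional repressor downstream of Notch, 4.26-fold, while RPRML fell 5.07-fold and QTGAL 4.26-fold. With IFNγ alone none of these 8 was called, their differences lying between -0.23 for PLCXD1 and 0.21 for DPH2. Below both single treatments after SOCS2 stood MEI1, a meiosis gene (-1.10), PIK3C2B, a phosphoinositide kinase (-1.28), TMEM151A (-1.62) and FAM210B (-0.85). In MEI1 the single treatments gave 0.07 for IFNγ and 0.02 for BRG1, neither of them called.

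Ribosome biogenesis, replication and SWI/SNF genes were lower. Over all genes, 34.3% were lower and 28.1% higher with both treatments, and 30.3% were lower with BRG1 alone. Of 23 ribosome biogenesis genes tested, 0 were higher and 20 lower with both treatments (median -0.63), against 19 lower with BRG1 alone and 0 with IFNγ alone, which raised 2. UTP15, a processome subunit, fell by 1.10 on the log2 scale, POLR1B and POLR1C, subunits of RNA polymerase I, by 1.05 and 0.95, and DKC1, the pseudouridine synthase dyskerin, by 0.99. Of 32 S phase and replication genes, 23 were lower and 3 higher (median -0.38), with E2F2, a transcription factor of the G1 to S transition, 3.18-fold lower and PRIM1, a primase subunit, 2.09-fold lower. The 32 G2 and mitosis genes split into 4 higher and 8 lower (median -0.03), below the share of all genes on both sides. Of 21 SWI/SNF subunit genes tested, 0 were higher and 15 lower (median -0.39), 8 of them called lower with BRG1 alone and 0 with IFNγ alone. BICRAL fell 3.34-fold, and ARID1A 1.64-fold, BICRA 1.62-fold and SMARCD3 1.58-fold. Of 11 PRC2 genes, 2 were higher and 0 lower, with MTF2, an accessory subunit, 1.81-fold higher. The core PRC2 genes SUZ12, at -0.01 (95% interval -0.42 to 0.40), and EZH2, at 0.13 (95% interval -0.01 to 0.27), were not called.

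**Figure D4:**
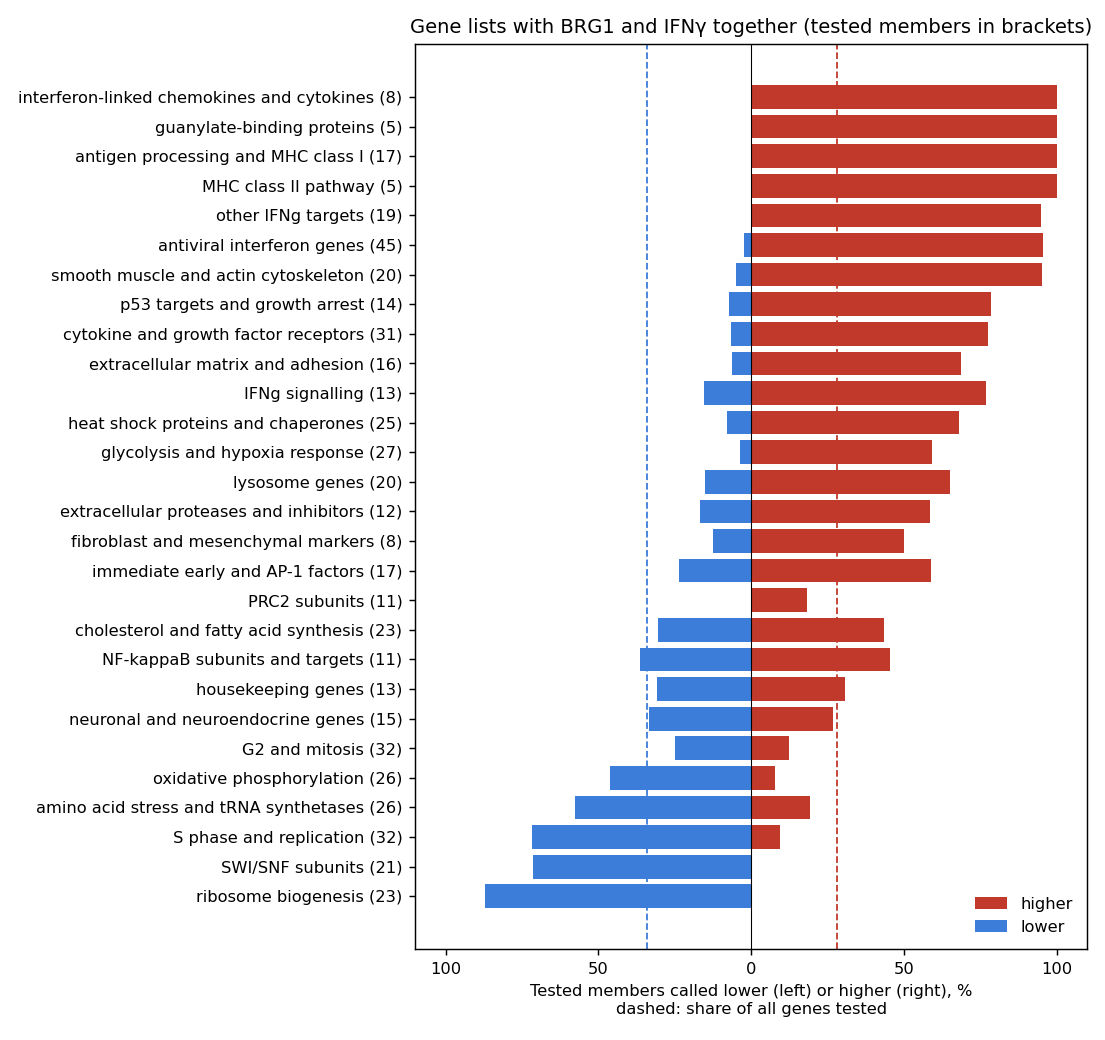
Share of tested members (x axis, percent) called lower (left of 0) and higher (right of 0) in Ad-BRG1 cells with IFNγ against untreated Ad-GFP cells for 28 gene lists (y axis), with the number tested in brackets. Dashed lines give the shares over all genes, 34.3% lower and 28.1% higher. The interferon lists other than IFNγ signalling lie at the top, together with smooth muscle genes, and ribosome biogenesis lies at the bottom. IFNγ signalling lies lower, under growth arrest genes, cytokine and growth factor receptors and matrix genes.

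In some genes the treatments opposed each other, so that the joint change hid a larger one. Called steps ran in opposite directions in 1130 of the 10333 genes tested, with BRG1 alone and then with IFNγ added to Ad-BRG1 cells. This count was not repeated under any alternative. Both steps share the untreated Ad-BRG1 arrays, so that error there pushes them in opposite directions. The genes described here were chosen for the size of such steps or of their departure from the sum. CHRNB1, a subunit of the muscle acetylcholine receptor, was at 5.96, 5.94 and 5.98 with both treatments, against 6.98, 7.11 and 6.78 in untreated Ad-GFP cells, a fall by 0.99. With IFNγ alone it was at 8.15, 8.28 and 8.18, a rise of 1.25 in Ad-GFP cells, and with BRG1 alone at 6.74, 6.44 and 6.36. Its departure from the sum, -1.80 ± 0.15, was the largest below it among called genes. LFNG, a glycosyltransferase that modifies Notch, was at 6.93, 6.93 and 6.66 with both, against 6.26, 6.61 and 6.59 in untreated Ad-GFP cells, a difference of 0.36 that was lost without replicate 1 of untreated Ad-GFP cells (0.24, adjusted p = 0.0628). BRG1 alone had brought LFNG to 7.93, 8.13 and 8.22, which is 1.61 above untreated Ad-GFP cells, so that most of that rise was absent on the arrays with IFNγ.

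LIPT1, a lipoyl transferase of mitochondria, ran the other way. It was at 9.32, 9.33 and 9.59 with both treatments, against 9.25, 9.16 and 9.18 in untreated Ad-GFP cells, a difference of 0.21 that was not called (95% interval -0.02 to 0.44). BRG1 alone had it at 8.25, 7.84 and 8.16, lower by 1.12, and the departure from the sum was 1.30. CTRL, a chymotrypsin-like protease, was 1.07 lower with BRG1 alone and 0.69 higher with both. RASSF2, a Ras-association domain protein, rose by 2.30 with both treatments and by 3.40 with BRG1 alone, and FIGNL2 by 0.39 and 1.57. MAG, a myelin glycoprotein, was at 5.71, 5.74 and 5.53 with both, and BRG1 alone gave 6.72, 6.76 and 6.30. In untreated Ad-GFP cells MAG was at 5.01, 5.02 and 5.18, where no array was above background, so its changes from there are bounds. RBM43, an RNA-binding protein, rose by 0.74 with IFNγ alone and fell by 0.43 with both (adjusted p = 0.0304). The fall of RBM43 was not called with average normalization (-0.06, adjusted p = 0.457), nor without replicate 1 or 2 of Ad-BRG1 cells with IFNγ or replicate 2 or 3 of untreated Ad-GFP cells (adjusted p = 0.0531 to 0.12).

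Of 13 housekeeping genes tested, 4 were higher and 4 lower (median -0.01), where 28.1% of all genes were higher and 34.3% lower, so their counts were near those of all genes. POLR2A, a subunit of RNA polymerase II, was 1.91-fold lower. ACTB was 1.18-fold higher, which was not called with the mean of its probes (0.12, adjusted p = 0.128). GAPDH differed by 0.15 and was not called (adjusted p = 0.0501), but was called in 6 alternatives (adjusted p = 0.0119 to 0.0438). Markers of other cell types were sparse. Of 15 leukocyte markers 3 were tested, and their summed linear intensity was 1788 to 2038 in Ad-BRG1 cells with IFNγ, against 1226 to 1338 in untreated Ad-GFP cells, where CD68, a lysosomal protein also found outside macrophages, rose 1.62-fold, CORO1A fell 1.58-fold, and PTPRC and CD3E did not pass the detection filter. Of 11 epithelial markers 2 were tested, with a sum of 359.5 to 399.5 against 126.6 to 162.3 and a 5.18-fold rise of the keratin KRT18, while EPCAM and CDH1 did not pass. Of 9 endothelial markers 3 were tested, with a sum of 256.8 to 296.1 against 249 to 287.2, and VWF and CDH5 did not pass. Of 12 fibroblast and mesenchymal markers 8 were tested, 4 higher and 1 lower, with a sum of 7609 to 8815 against 7657 to 8274. The 2 adrenal cortex genes tested summed to 137.1 to 153.7 against 179.6 to 208.3. The part of these markers in the other differences was not tested.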

How the data were processed

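RNA of 12 cultures of SW-13 cells was hybridized to Illumina Human-WG6 BeadChips, 1 colour and 1 array per sample. The deposited raw values are linear intensity exported from BeadStudio (its version is not given in the sources used here), with neither background subtraction nor normalization. The authors also deposited a detection p-value per probe and array. The authors' second set holds intensity after average normalization, which here equalled the raw values times 1 constant per array (0.924 to 1.14), and served as an alternative. Groups came from the sample titles.

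Of 48803 probes, 27578 had 1 gene symbol, 13 several and 21212 none. Intensities were background-corrected, quantile-normalized and taken to log2 by the neqc function (limma 3.58.1, R 4.3.3) with an offset of 16 and with negative controls estimated through detection p. Each array had 15741 to 16828 probes with detection p under 0.05, and 16233 probes met this on all 3 arrays of at least 1 group. The probe with the highest mean stood for its gene, which gave 10333 genes. lmFit and eBayes were fitted to all 12 arrays with 1 mean per group (8 residual and 4.24 prior degrees of freedom), two-sided, with Benjamini-Hochberg adjustment over all genes. The departure from the sum of the single changes is the interaction term. A gene was above (below) both single treatments when the larger of its 2 one-sided p-values passed adjustment. The fit was tested on simulated data. Plots came from matplotlib 3.10.9 under Python 3.11.15. The number of arrays limits the precision.

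Named genes were the 15 largest rises and 10 largest falls of at least 2-fold without overlap between groups, up to 4 called members of each gene list with the largest change, 5 genes each above and below both single treatments, 5 with the largest positive and negative departures, 5 with opposite steps, and checks. The comparison, the gene lists and this rule were chosen with earlier results of these data known. Alternatives were another normalization, offset, detection filter or probe rule, a replicate block, an intensity trend, limma's treat, the 6 arrays alone, and each array left out. A block for the BeadChip was not run because the file headers name no chip.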

Additional observations from a re-analysis of the deposited data

Results flagged for a closer look

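In 44 of the 144 named genes the change with both treatments departed from the sum of the single changes, on the log2 scale and by the interaction term of limma, so that the response to 1 treatment differed with the other. These genes were named partly for their size of change and partly for the departure itself. Others were named for a level beyond both single treatments or for opposite steps. The choice thus raised the share of departures among them, and it is not comparable with that of all genes. Over all genes, 4.32% lay above and 3.83% below the sum. Above the sum were IFIT3 (5.70), GBP1 (5.39), IL18BP (5.31), UBD (5.21), PLAAT4 (4.99), GBP4 (4.41), IFITM1 (4.33), GBP2 (3.95), GBP5 (3.85) and IFI27 (3.35). Smaller departures on this side were those of CXCL10 (3.10), CCL8 (2.86), CCL2 (2.80), PSMB8 (2.61), SOCS1 (2.40), BATF2 (1.82), IL15RA (1.77), CTRL (1.69), LIPT1 (1.30) and LGALS3BP (1.27). The rest were IRF8 (1.16), IFI30 (1.03), LY96 (0.88), HLA-DOB (0.82), THBS1 (0.78), CIITA (0.52), MTF2 (0.51), LAMB1 (0.48), TNFRSF1A (0.45) and TAP1 (0.43). Below the sum lay CHRNB1 (-1.80), LFNG (-1.26), MEI1 (-1.19), MAG (-1.13), RBM43 (-1.12), HSPB3 (-1.05), HLA-E (-0.88), RASSF2 (-0.84), PLAT (-0.69), FIGNL2 (-0.69), GPNMB (-0.69), PLCXD1 (-0.65), SOCS2 (-0.55) and CDKN1A (-0.51). The departures of CIITA, MTF2, LAMB1, TNFRSF1A, TAP1, PLAT, PLCXD1, SOCS2 and CDKN1A each lost their call in at least 1 alternative. Departures of genes with a group not above background rest on values under the detection limit. For GBP1, IFIT3 and UBD, which were above background only with both treatments, the direction was set in advance.

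Probes with no single gene symbol stand outside the comparison of genes. Of 2859 such probes that passed the detection filter, 98 rose and 95 fell at least 2-fold in Ad-BRG1 cells with IFNγ relative to untreated Ad-GFP cells.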

How the results depend on the processing

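Of 144 named genes, 133 kept their call and direction in every alternative in which they were tested, and 35 of 44 departures from the sum did. A gene that the stricter detection filter dropped was not counted as lost. With the authors' average normalization, 3317 genes were higher and 3125 lower, 2-fold calls numbered 321 higher and 83 lower, and departures above the sum 817. Genes above both single treatments then numbered 852 and those below both 566, so that these balances turned, and the distance between groups less that within them was 0.376. Quantile normalization without background correction gave 314 higher and 83 lower at 2-fold and 761 departures above and 722 below the sum. An offset of 50 gave 216 lower at 2-fold. limma's treat against a 2-fold change called 377 higher and 115 lower. With an intensity trend in the variance, departures numbered 722 above and 667 below. Without the detection filter the distance was 0.374. The cause of these shifts was not tested.

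A replicate block gave 2975 genes higher and 3593 lower, and 727 departures above and 611 below the sum. Same-numbered arrays deviated together with correlations of -0.193 to 0.439, with 9 of 18 pairs over 0.1, and 7 of 12 arrays matched their own number best. As not every pair was over 0.1 and no label says what a number marks, the numbers were not used as pairs, and whether same-numbered arrays share a batch is not known. Leaving out 1 array gave 2684 to 2933 genes higher and 3216 to 3582 lower, 613 to 651 and 347 to 382 at 2-fold, 213 to 835 departures above and 138 to 780 below the sum, and 370 to 671 genes above and 320 to 856 below both single treatments. The lowest counts above and below both came without replicates 2 and 3 of Ad-BRG1 cells with IFNγ. The difference ranged from -0.153 to 0.028 for SMARCA4 and from -0.189 to 0.162 for SUZ12 when 1 array was left out, and was -0.028 for EZH2 as the mean of its probes. With average normalization the departure was 0.079 for SOCS2, 0.022 for CDKN1A and -0.229 for PLAT (adjusted p = 0.0647). The other departures lost in some alternative were those of CIITA (0.222, adjusted p = 0.079, without background correction), MTF2, LAMB1, TNFRSF1A, TAP1 and PLCXD1, whose adjusted p reached 0.0985, 0.0943, 0.0738, 0.0663 and 0.0811. The median of PRC2, G2 and mitosis, neuronal and housekeeping genes changed sign in some alternatives. Probes near the detection limit give bounds, not fold changes.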

Other observations

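Metabolic gene groups moved with both treatments by less than the interferon genes. Over all genes, 28.1% were higher and 34.3% lower with both treatments, and 26.7% and 30.3% with BRG1 alone. Of 27 glycolysis and hypoxia response genes tested, 16 were higher and 1 lower in Ad-BRG1 cells with IFNγ than in untreated Ad-GFP cells (median 0.28), with ALDOC, a brain form of aldolase, 3.93-fold, the hexokinase HK1 3.01-fold and the vasoactive peptide ADM 2.90-fold higher, against 19 higher and 2 lower with BRG1 alone. Of 26 oxidative phosphorylation genes, 2 were higher and 12 lower (median -0.13), with CYC1, the cytochrome c1 of complex III, at -0.59. Of 20 lysosome genes, 13 were higher and 3 lower (median 0.34). GPNMB, a glycoprotein of lysosomes and melanosomes, was at 10.02, 10.04 and 9.86 with both treatments, against 5.04, 4.93 and 4.81 in untreated Ad-GFP cells, a rise of at least 24.3-fold, and the sterol carrier NPC2 rose 2.39-fold.

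Cholesterol and fatty acid synthesis genes were mixed, with 10 of 23 higher and 7 lower, where 28.1% of all genes were higher and 34.3% lower. Among them were the elongase ELOVL6 at 1.19 and the fatty acid synthase FASN at -0.68. Of 26 amino acid stress and tRNA synthetase genes, 5 were higher and 15 lower (median -0.28), with SLC7A1 at -1.14 and PSAT1 at -1.06, while the receptor VLDLR rose at least 7.32-fold. NF-kappaB subunits and targets were higher in 5 and lower in 4 of 11 genes tested, with BCL3 at 0.99 and RELB at -0.62. Of 15 neuronal and neuroendocrine genes, 4 were higher and 5 lower (median -0.06, and 0.06 with average normalization), near the shares of all genes. The enolase ENO2 was 2.51-fold higher and the granin CHGB 2.39-fold lower.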
